A study of Mus musculus with 19 samples.

Results

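Skin transcripts of Scl-cGVHD mice given a high or a low dose of the anti-CX3CL1 mAb were compared, which asks whether the skin differed between the doses. Of the 19 mice of the series, 8 belong to this comparison, 5 given 1 mg per head (ID_1542, ID_1543, ID_1544, ID_1545 and ID_1546) and 3 given 0.5 mg per head (ID_1539, ID_1540 and ID_1541). The mice were taken by their labels alone, and 16350 of the 50686 genes in the table were tested, those with at least 1 TPM in at least 3 of the 19 mice. TPM is a relative transcript level, corrected for gene length and scaled to a common library total.

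All 8 mice were irradiated female BALB/c recipients of T cell-depleted bone marrow and spleen cells from male B10.D2 donors, a transplant that differs from the host in minor antigens and leads to sclerodermatous chronic graft-versus-host disease. The mAb (clone 5H8-4) was injected intraperitoneally repeatedly between day 7 and day 35, and skin was collected on day 42. Reference levels came from 3 Scl-cGVHD mice given control IgG (an anti-DNP mAb) and 3 syngeneic mice given that IgG, which had received male BALB/c cells. Another 5 syngeneic mice were given the mAb at a dose that the labels do not state, and they entered the common fit and the filter only. A whole piece of skin reads host and donor cells together.

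CX3CL1, or fractalkine, is made as a membrane protein of endothelium and epithelium and is shed as a soluble chemokine by the proteases ADAM10 and ADAM17. Its receptor CX3CR1 sits on monocytes, macrophages, dendritic cells and some cytotoxic T cells. In sclerodermatous disease, T cells and macrophages enter the skin, the dermis thickens with collagen, and hair follicles, glands and fat are lost.

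The 3 mice at 0.5 mg were unlike one another. Each mouse was placed on a line between the mean of syngeneic IgG skin (position 0) and the mean of Scl-cGVHD IgG skin (position 1) over all tested genes. The 1 mg mice lay at 0.635, 0.539, 0.970, 0.776 and 1.02, against 0.958, 0.193 and 0.616 in the 0.5 mg mice. ID_1540 therefore lay closer to syngeneic skin than any other treated Scl-cGVHD mouse, while ID_1539 lay beside the Scl-cGVHD IgG mice. The mean position was 0.788 ± 0.207 in 1 mg mice and 0.589 ± 0.383 in 0.5 mg mice (SD, n = 5 and n = 3). The difference of 0.198 was smaller than the spread within the 0.5 mg group (exact two-sided permutation test, p = 0.357; the smallest p that 56 arrangements allow is 0.0357). Without ID_1540 the difference was 0.00041 (exact permutation test, p = 0.952). Results that rest on this mouse are given with and without it.

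**Figure D1:**
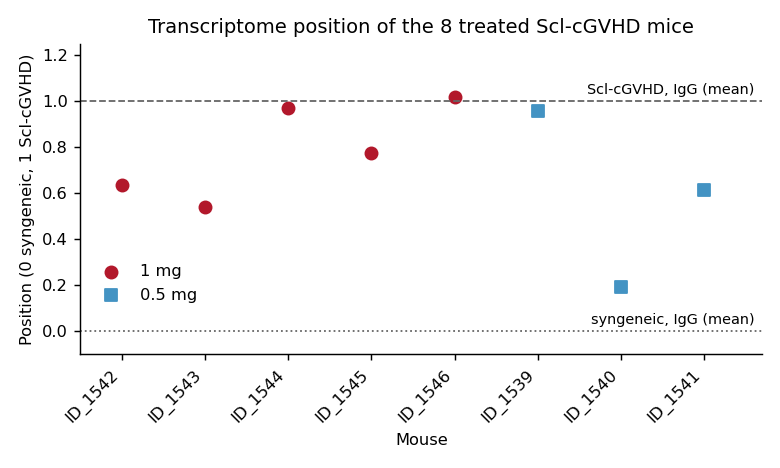
Position of each of the 8 mice (x axis) between syngeneic IgG skin at 0 and Scl-cGVHD IgG skin at 1 (y axis, no unit), over all 16350 tested genes; circles are 1 mg mice and squares are 0.5 mg mice. The 1 mg mice span 0.539 to 1.02 and the 0.5 mg mice 0.193 to 0.958, so the groups overlap.

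The spread was wider at the low dose for most genes. The median SD of log2(TPM + 1) over genes was 0.33 in 1 mg mice and 0.45 in 0.5 mg mice, and 69.9% of the genes had the larger SD at 0.5 mg. Transcripts of the mitochondrial genome made up 1.29% to 6.09% of the total in 1 mg mice and 1.52% to 9.93% in 0.5 mg mice, the highest being ID_1540. Skeletal muscle genes made up 1.07% to 2.51% in 1 mg mice and 1.54% to 3.71% in 0.5 mg mice, again with ID_1540 highest. No difference between the doses was detected in the 6 measures of library composition (exact permutation tests, adjusted p = 0.893 for each). Keratinocyte markers were abundant in every mouse, with Krt5 between 3330 and 3871 TPM at 1 mg and between 2623 and 3243 TPM at 0.5 mg and no overlap. Krt14, another of these markers, did overlap, between 4011 and 15730 TPM at 1 mg and between 2080 and 8903 TPM at 0.5 mg. Krt31 and Krt71, keratins of the growing hair, stayed at or below 0.19 TPM in all 8 mice. Uniquely mapped read pairs numbered 20325491 to 35005382 per library over the series, and their summary does not name single mice.

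No gene passed the test between the doses. With limma, 0 of 16350 genes were higher (0%) and 0 lower (0%) at 1 mg at an adjusted p under 0.05, and the smallest adjusted p was 0.31. At an unadjusted p under 0.05, 481 genes (2.94%) were higher and 384 (2.35%) lower. The 8 mice fitted alone also gave 0 calls, with a smallest adjusted p of 0.369, and leaving out 1 mouse at a time gave 0 to 4 genes higher and 0 to 1 lower. In 309 genes (1.89%) every 1 mg mouse lay above every 0.5 mg mouse, and in 226 (1.38%) every 1 mg mouse lay below. The median log2 fold change over all tested genes was 0.00, with 50.7% of the genes positive. That centre moved with single mice of the 0.5 mg group, to 0.15 with 67.9% positive without ID_1540 and to -0.13 with 33.6% positive without ID_1539, and values without ID_1540 are read against 0.15 and 67.9%. Means are followed by the SD over 5 mice at 1 mg and over 3 mice in every other group. All differences given from here on are log2(TPM + 1) values at 1 mg minus those at 0.5 mg, a scale on which differences of weakly expressed genes come out too small. Fewer cells of a type and less RNA per cell cannot be told apart in whole skin.

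Among genes without overlap between the doses, those with the smallest p were proteins of endosomes and lysosomes, tryptases, an epidermal junction protein and others of unlike roles. Plekhb2 (ENSMUSG00000026123, chromosome 1, 34849976 to 34879580 on GRCm38), a membrane protein of recycling endosomes, was at 51.1, 46.8, 51.2, 46.2 and 47.1 TPM in 1 mg mice and at 30.98, 31.4 and 36.8 TPM in 0.5 mg mice. It was higher by 0.54 (standard error 0.11, adjusted p = 0.31 from limma), where Scl-cGVHD IgG mice had 48.1 ± 1.06 TPM and syngeneic IgG mice 27.4 ± 0.561 TPM (SD, n = 3 each). The 1 mg mice therefore lay at the Scl-cGVHD level of this gene and the 0.5 mg mice nearer to the syngeneic level.

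Ctsa, a lysosomal carboxypeptidase that also protects neuraminidase and beta-galactosidase, was at 216, 187, 247, 225 and 257 TPM in 1 mg mice and at 165, 139.7 and 155 TPM in 0.5 mg mice. The difference was 0.55 (standard error 0.11, adjusted p = 0.343), and it lay between 0.49 and 0.62 when any 1 of the 8 mice was left out. The lowest 1 mg mouse, ID_1543, lay above the highest 0.5 mg mouse, ID_1539. Gba2, the glucosylceramidase outside lysosomes, averaged 25.6 ± 2.72 TPM in 1 mg mice and 12.7 ± 1.77 TPM in 0.5 mg mice, a difference of 0.96 (standard error 0.21, adjusted p = 0.448).

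Among the other genes of this kind, Gpr35, a receptor found on leukocytes, averaged 8.19 ± 1.36 TPM in 1 mg mice and 3.06 ± 1.44 TPM in 0.5 mg mice. Cpa4, a secreted carboxypeptidase, averaged 95.2 ± 17.4 TPM in 1 mg mice and 42.4 ± 14.9 TPM in 0.5 mg mice. Jup, the plakoglobin of desmosomes and adherens junctions, averaged 578 ± 52.0 TPM in 1 mg mice and 361 ± 69.2 TPM in 0.5 mg mice. The transporter gene Slc6a20a and the sorting nexin gene Snx15 were also above the 0.5 mg range in every 1 mg mouse, with differences of 0.80 and 0.58.

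In the other direction, Ggnbp1, a gametogenetin-binding protein, was at 5.81, 5.26, 4.37, 7.35 and 3.74 TPM in 1 mg mice and at 7.93, 20.8 and 17.9 TPM in 0.5 mg mice, a difference of -1.32 (standard error 0.31, adjusted p = 0.647). Its Scl-cGVHD IgG mean was 5.37 TPM and its syngeneic IgG mean 18.1 TPM. Podxl2 (endoglycan), a sialomucin related to CD34, averaged 6.50 ± 0.87 TPM in 1 mg mice and 12.5 ± 2.38 TPM in 0.5 mg mice. Plac9b averaged 21.0 ± 4.57 TPM in 1 mg mice and 39.9 ± 4.27 TPM in 0.5 mg mice, but it has the near copies Plac9a and Gm9780 on chromosome 14, and the authors' estimates may divide reads among them. The long noncoding RNA Malat1, which is kept in the nucleus, averaged 151 ± 14.4 TPM in 1 mg mice and 262 ± 88.7 TPM in 0.5 mg mice.

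The remaining low-p genes that were lower at 1 mg were Cldn10, a claudin of ion-transporting epithelia (-0.86), Dpm3 of dolichol-phosphate mannose synthesis (-0.45), the exon junction gene Magohb (-0.60), the splicing factor gene Prpf3 (-0.73), Ifi27 (-0.55), Npdc1 (-0.55), Usmg5 of ATP synthase (-0.37) and the tRNA splicing gene Tsen15 (-0.52). Among these 12 genes lower at 1 mg, the adjusted p ranged from 0.647 to 0.897. Ifi27 is named for its interferon response, yet it averaged 150 ± 21.4 TPM in 1 mg mice and 220 ± 23.2 TPM in 0.5 mg mice.

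**Figure D2:**
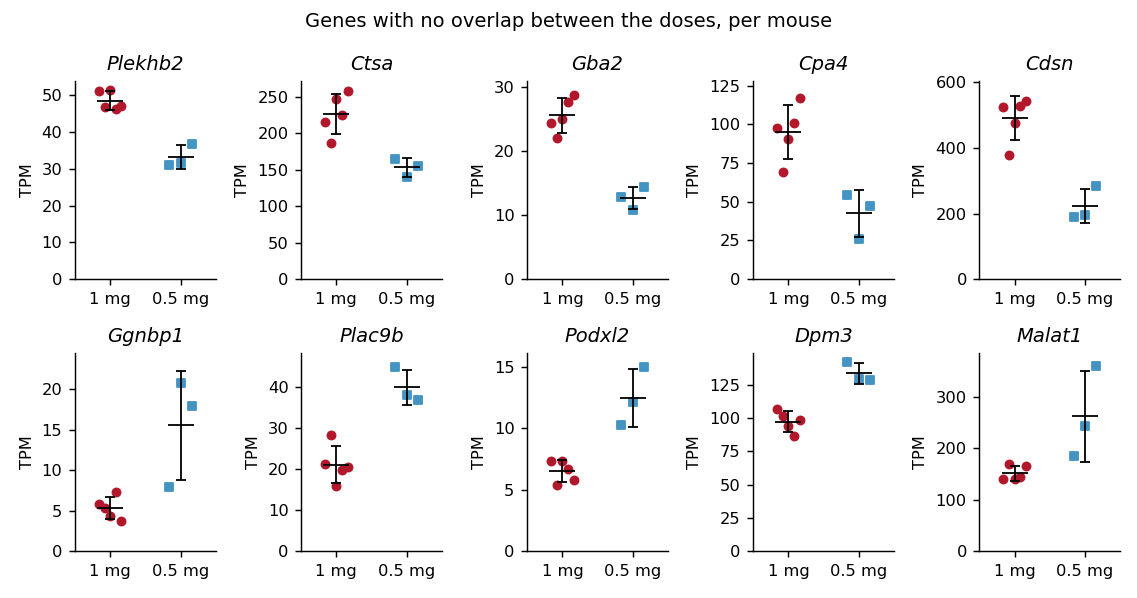
TPM of 10 genes whose doses do not overlap, 1 panel a gene; circles are 1 mg mice, squares are 0.5 mg mice, and the bars show mean and SD (n = 5 and n = 3). The top 5 panels are higher and the lower 5 are lower at 1 mg, as in Gba2 (22.0 to 28.8 TPM at 1 mg, 10.8 to 14.4 TPM at 0.5 mg) and Plac9b (15.7 to 28.3 TPM at 1 mg, 36.8 to 44.8 TPM at 0.5 mg).

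Mast cell genes had the highest median of the 45 gene lists only once ID_1540 was left out, and leaving it out raised that median. With all mice the stefin A (1.80), wound-activated keratinocyte (1.50) and neutrophil (1.05) lists had higher medians. All 10 listed genes had a positive difference, with a median of 0.88, against 50.7% of all tested genes and a median of 0.00. At an unadjusted p under 0.05 from limma, 5 of the 10 were higher (2.94% of all genes). In 4 the doses did not overlap, where 1.89% of all genes did so in this direction. None was called by limma. Without ID_1540 the median was 1.27 with all 10 positive, and it stayed between 0.68 and 1.27 when any 1 mouse was left out. The 0.68 came without ID_1539, where other lists were higher, such as inflammatory macrophage (1.10) and epidermal differentiation (1.04) genes.

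The tryptase Tpsb2 (ENSMUSG00000033825, chromosome 17, 25366550 to 25368094), a serine protease of connective tissue mast cell granules, was at 28.3, 60.4, 31.9, 81.2 and 63.5 TPM in 1 mg mice and at 18.4, 15.4 and 14.7 TPM in 0.5 mg mice. The difference was 1.55 (standard error 0.33, adjusted p = 0.395). Its neighbour Tpsab1 (chromosome 17, 25343245 to 25345562), the other tryptase, was at 12.8, 19.4, 13.2, 23.1 and 27.9 TPM in 1 mg mice and at 6.54, 2.82 and 5.90 TPM in 0.5 mg mice, a difference of 1.74 (standard error 0.37, adjusted p = 0.395). The sequences of the 2 tryptases are alike, so part of their reads may have been shared out between them by the authors' estimation.

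The chymase Cma1 averaged 52.3 ± 14.9 TPM in 1 mg mice and 25.9 ± 10.9 TPM in 0.5 mg mice. Fcer1a, the chain of the high-affinity IgE receptor that binds IgE, averaged 11.2 ± 4.21 TPM in 1 mg mice and 3.76 ± 2.06 TPM in 0.5 mg mice. Cpa3, the granule carboxypeptidase, was at 26.9, 49.2, 19.2, 40.6 and 14.9 TPM in 1 mg mice and at 8.28, 32.4 and 7.41 TPM in 0.5 mg mice. In Cpa3 the groups overlapped through ID_1540, the highest of the 0.5 mg mice, and the same held for Mcpt4 and Ms4a2.

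Kit, the stem cell factor receptor of mast cells and melanocytes, differed by 0.08, with 1.42 to 3.68 TPM in 1 mg mice and 1.91 to 4.24 TPM in 0.5 mg mice. Cma1 averaged 30.6 ± 8.97 TPM in the Scl-cGVHD IgG group and 61.3 ± 13.6 TPM in the syngeneic IgG group, and Tpsab1 averaged 24.5 ± 10.9 TPM in the Scl-cGVHD IgG group and 6.01 ± 2.71 TPM in the syngeneic IgG group. The list median for Scl-cGVHD IgG over syngeneic IgG skin was -0.39, with members on both sides.

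**Figure D3:**
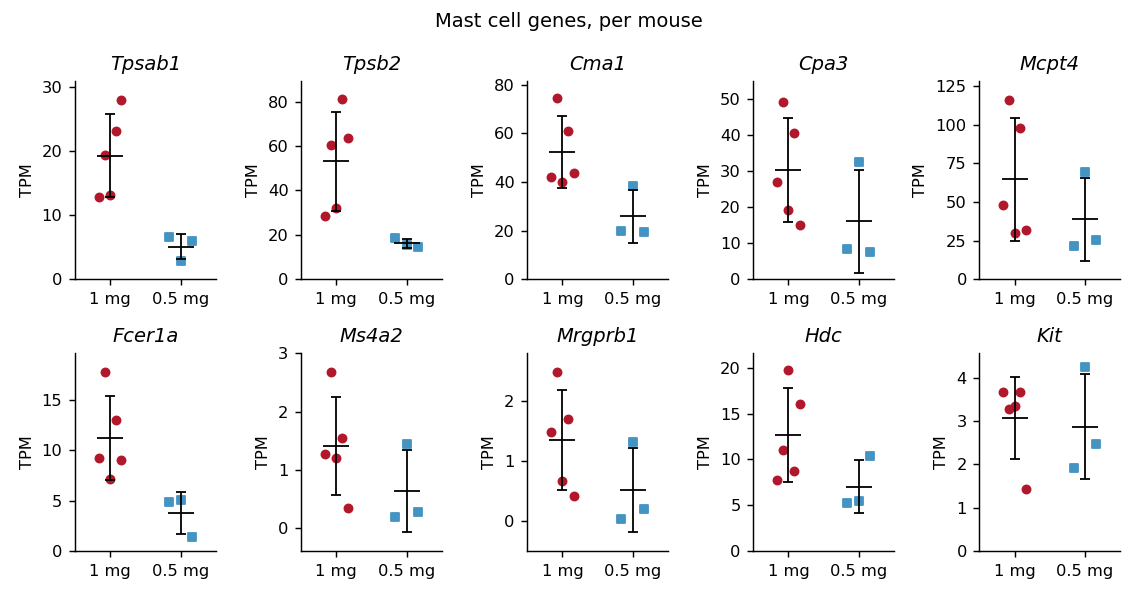
TPM of the 10 mast cell genes, 1 panel a gene; circles are 1 mg mice, squares are 0.5 mg mice, and the bars show mean and SD (n = 5 and n = 3). Tpsab1, Tpsb2, Cma1 and Fcer1a do not overlap between the doses, and the other 6 genes overlap.

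Promoters of 3 mast cell genes that were higher at an unadjusted p under 0.05 are shown, since they carry the motif of a factor family that mast cells use. They are the 250 bases before the RefSeq start on GRCm38.p6, minus strand, in 5′ to 3′ order, with the core GATA motif GATAA (either strand) in capitals.
Cma1: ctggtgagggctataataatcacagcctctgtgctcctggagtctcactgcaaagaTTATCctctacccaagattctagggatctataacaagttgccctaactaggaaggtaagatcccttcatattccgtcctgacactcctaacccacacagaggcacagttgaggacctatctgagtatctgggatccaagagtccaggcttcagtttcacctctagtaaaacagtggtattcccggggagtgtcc
Fcer1a: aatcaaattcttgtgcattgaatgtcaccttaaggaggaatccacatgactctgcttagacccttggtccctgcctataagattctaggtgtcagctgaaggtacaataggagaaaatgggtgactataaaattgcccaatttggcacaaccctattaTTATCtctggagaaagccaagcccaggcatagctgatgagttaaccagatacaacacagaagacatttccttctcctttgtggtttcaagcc
Cpa3: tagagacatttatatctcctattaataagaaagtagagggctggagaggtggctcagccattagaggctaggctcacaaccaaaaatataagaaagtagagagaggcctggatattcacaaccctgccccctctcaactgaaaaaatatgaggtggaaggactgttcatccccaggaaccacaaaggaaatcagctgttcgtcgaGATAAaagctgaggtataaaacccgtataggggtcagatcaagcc
They lie at chr14:55944676-55944925, chr1:173227230-173227479 and chr3:20242182-20242431. Of the 10 listed genes 8 had a promoter in the RefSeq table, and 5 of these held GATAA (Cma1, Cpa3, Fcer1a, Mcpt4 and Ms4a2), while 22.6% of the 32851 promoters in the table held it. A listed gene counted if any of its promoters held the motif, whereas the 22.6% is a share of promoters and not of genes. The match is a description of letters, and binding was not measured.

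Interferon response genes were higher at 1 mg in direction, and less so without ID_1540. All 20 listed genes had a positive difference with a median of 0.79, 10 had an unadjusted p under 0.05 (2.94% of all genes in this direction), and 0 had doses that did not overlap (1.89% of all genes). Without ID_1540 the median was 0.35 and 90% were positive.

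Oas1a, an antiviral oligoadenylate synthetase, was at 7.14, 11.3, 8.81, 7.80 and 4.84 TPM in 1 mg mice and at 3.57, 3.55 and 5.64 TPM in 0.5 mg mice. It was listed at 0 in the 3 syngeneic IgG mice and averaged 10.7 ± 6.17 TPM in Scl-cGVHD IgG mice. Only the Scl-cGVHD mice received B10.D2 cells, so donor strain and disease cannot be told apart in these reference values. Promoters of Oas1a and Rsad2 are given, since both carry the core of the interferon-stimulated response element, GAAA, any 2 bases and GAAA again, on either strand (capitals; 250 bases before the RefSeq start on GRCm38.p6, minus strand).
Oas1a: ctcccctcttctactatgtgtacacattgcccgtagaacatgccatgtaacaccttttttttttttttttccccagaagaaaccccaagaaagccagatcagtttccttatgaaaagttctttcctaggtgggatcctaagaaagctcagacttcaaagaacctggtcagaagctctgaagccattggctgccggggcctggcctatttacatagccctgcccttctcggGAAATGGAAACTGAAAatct
Rsad2: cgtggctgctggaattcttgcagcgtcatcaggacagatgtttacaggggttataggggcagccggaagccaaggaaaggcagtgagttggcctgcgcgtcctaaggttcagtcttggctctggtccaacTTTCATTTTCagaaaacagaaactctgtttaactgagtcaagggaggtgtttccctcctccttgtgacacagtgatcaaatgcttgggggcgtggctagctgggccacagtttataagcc
They lie at chr5:120907526-120907775 and chr12:26456453-26456702. In Oas1a the capitals are 2 overlapping matches. Of the 20 listed genes 14 had a promoter in the table and 10 of them held the motif in any promoter, against 2.98% of all promoters. The 10 are counted by gene and the 2.98% by promoter.

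Genes of the cornifying epidermis were higher at 1 mg in direction. Of 25 listed genes of epidermal differentiation, 22 were positive with a median of 0.72 (0.42 without ID_1540), 3 had an unadjusted p under 0.05 (2.94% of all genes) and 3 did not overlap (1.89% of all genes), namely Cdsn, Krt1 and Krt10. Cdsn, or corneodesmosin, which glues the outermost cells together, was at 525, 380, 475, 529 and 542 TPM in 1 mg mice and at 190, 197 and 284 TPM in 0.5 mg mice. It was higher by 1.14 (standard error 0.30, adjusted p = 0.816) and by 1.06 without ID_1540, so this gene did not turn on that mouse.

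Krt1, the keratin of suprabasal cells, lay between 2864 and 5841 TPM at 1 mg and between 1029 and 2647 TPM at 0.5 mg. The list of basal and follicle stem keratinocytes went the other way, with 11 of 17 genes negative and a median of -0.49 (-0.14 without ID_1540). Of 14 genes of the lipid barrier, 12 were positive with a median of 0.45 (0.40 without ID_1540), and 4 did not overlap (1.89% of all genes). They were Sdr9c7, which acts on the acylceramides, the omega-hydroxylase Cyp4f39, the acid sphingomyelinase Smpd1 and the lipid transporter Abca12. Sdr9c7 averaged 58.0 ± 5.05 TPM in 1 mg mice and 34.4 ± 8.40 TPM in 0.5 mg mice.

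Genes of the wounded epidermis had the largest list medians with all mice, and these medians moved with ID_1540 and with ID_1539. The 20 tested genes of wound-activated keratinocytes had a median of 1.50 with 19 positive, and the 8 stefin A genes, a cluster of cysteine protease inhibitors, one of 1.80 with all positive. Without ID_1540 these medians were 0.23 and 0.34, and without ID_1539 they were 2.96 and 3.31. Krt6b, a keratin of wounded epidermis, was at 1668, 533, 3741, 2811 and 6897 TPM in 1 mg mice and at 2955, 14.9 and 581 TPM in 0.5 mg mice. ID_1540 was thus near the syngeneic IgG mean of 12.6 TPM, and the difference was 2.93 with it and 0.81 without it. The stefin A genes are close copies of each other, and their single values are uncertain.

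Of the 17 genes of the IL-1 and IL-36 family, cytokines that keratinocytes and leukocytes release and their receptors, 13 were positive with a median of 0.66 (0.39 without ID_1540), 7 had an unadjusted p under 0.05 (2.94% of all genes), and 3, Il1a, Il1rn and Il1rl1, did not overlap (1.89% of all genes). Il1a, the IL-1 alpha that damaged keratinocytes release, was at 19.7, 14.1, 33.8, 14.1 and 11.1 TPM in 1 mg mice and at 9.55, 6.57 and 4.71 TPM in 0.5 mg mice. Its antagonist Il1rn averaged 86.4 ± 19.9 TPM in 1 mg mice and 51.8 ± 12.7 TPM in 0.5 mg mice, so ligand and antagonist stood on the same side. Il1f8, or IL-36 beta, averaged 43.0 ± 10.4 TPM in 1 mg mice and 20.9 ± 12.4 TPM in 0.5 mg mice.

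**Figure D4:**
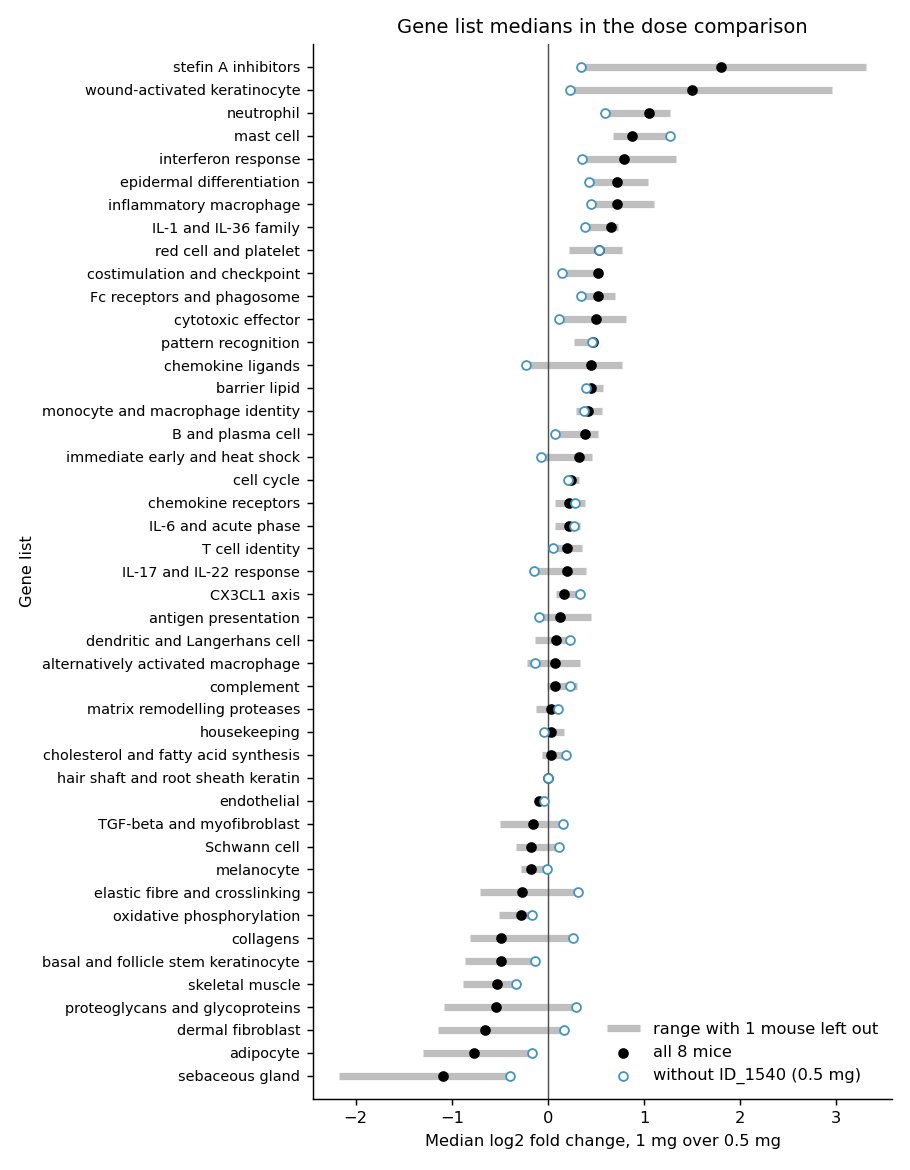
Median log2 fold change of each of the 45 gene lists (y axis), 1 mg over 0.5 mg (x axis); filled circles use all 8 mice, open circles leave out ID_1540, and grey bars span the medians with each of the 8 mice left out in turn. Wound-activated keratinocyte genes have a median of 1.50 with all mice and 0.23 without ID_1540, while mast cell genes have 0.88 and 1.27.

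All 18 genes of monocyte and macrophage identity were positive with a median of 0.41 (0.37 without ID_1540), with C1qc, a chain of complement C1q that macrophages make, among those without overlap. C1qc averaged 521 ± 84.9 TPM in 1 mg mice and 386 ± 85.6 TPM in 0.5 mg mice, where the lowest 1 mg value was 448.5 TPM and the highest 0.5 mg value 447.96 TPM. All 18 genes of pattern recognition were positive with a median of 0.47, and Tlr2, Tlr6, Tlr13 and Irak4 did not overlap (1.89% of all genes). Irak4, a kinase below Toll-like and IL-1 receptors, averaged 7.39 ± 0.82 TPM in 1 mg mice and 4.80 ± 0.28 TPM in 0.5 mg mice, a difference of 0.53 (standard error 0.15, adjusted p = 0.897).

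T cell identity genes had a median of 0.20 with 16 of 19 positive, and 0.05 without ID_1540. Cd8a, the coreceptor of cytotoxic T cells, was at 5.45, 5.64, 8.38, 5.08 and 3.14 TPM in 1 mg mice and at 2.23, 1.93 and 3.97 TPM in 0.5 mg mice, overlapping through ID_1546 and ID_1541. Pdcd1, the checkpoint receptor PD-1, lay between 0.99 and 3.07 TPM at 1 mg and between 0.14 and 0.75 TPM at 0.5 mg. Chemokine ligands had a median of 0.45 with all mice and -0.23 without ID_1540, a change of sign. The median of the 14 neutrophil genes was 1.05, or 0.60 without ID_1540, and all were positive.

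Genes of inflammatory macrophages had a median of 0.71 (0.44 without ID_1540), Fc receptors and phagosome genes 0.52 (0.35), and cytotoxic effectors 0.50 (0.11). Alternatively activated macrophage genes had a median of 0.08 (-0.14 without ID_1540). Genes of dendritic and Langerhans cells had a median of 0.09, or 0.23 without ID_1540 and -0.13 without ID_1539. Neither list thus kept its sign. Antigen presentation genes had a median of 0.13 (-0.09 without ID_1540), and complement genes 0.08 (0.23). Costimulation and checkpoint genes had a median of 0.52 (0.14 without ID_1540), and 3 of its 16 tested genes, Pdcd1, Cd80 and Tnfsf9, did not overlap (1.89% of all genes).

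The CX3CL1 axis itself did not differ detectably between the doses. Cx3cl1 was at 9.55, 8.69, 4.72, 6.95 and 4.50 TPM in 1 mg mice and at 3.88, 9.16 and 7.94 TPM in 0.5 mg mice. Its difference of -0.0022 had a 95% interval of -0.56 to 0.55, which does not show that the level was alike. Cx3cr1 averaged 0.43 ± 0.22 TPM in 1 mg mice and 0.40 ± 0.42 TPM in 0.5 mg mice, close to the lower end of the table. The shedding proteases Adam10 and Adam17 had differences of 0.26 (95% interval -0.25 to 0.78) and 0.35 (95% interval -0.11 to 0.80). Adgre1, the F4/80 antigen of macrophages, and Cd3e of T cells differed by 0.32 (95% interval -0.41 to 1.06) and 0.23 (95% interval -0.58 to 1.05).

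Collagen and fibroblast genes turned on ID_1540. Col1a1, which encodes type I collagen, was measured at 74.5, 79.4, 25.0, 27.5 and 15.7 TPM in 1 mg mice and at 13.8, 991 and 57.9 TPM in 0.5 mg mice. It averaged 119 ± 171 TPM in Scl-cGVHD IgG mice and 1475 ± 514 TPM in syngeneic IgG mice, so ID_1540 lay nearest to the syngeneic level. The difference was -1.34 (95% interval -3.65 to 0.97, adjusted p = 1) with all mice and 0.35 without ID_1540, which is a change of sign. The 20 collagen genes had a median of -0.49 with 14 negative, and 0.26 with 90% positive without that mouse. The 17 dermal fibroblast genes had a median of -0.65, or 0.17 without it. Col1a2 behaved likewise (-1.35 with and 0.17 without it). In Scl-cGVHD IgG over syngeneic IgG skin, limma called 10 of the 20 collagen genes and 11 of the 17 fibroblast genes lower, and 0 higher.

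Acta2, the smooth muscle actin of myofibroblasts and vessels, kept its sign without ID_1540, unlike these collagens. It was at 119, 154, 106, 133 and 85.8 TPM in 1 mg mice and at 147, 192 and 180 TPM in 0.5 mg mice, a difference of -0.55 (95% interval -1.05 to -0.05, adjusted p = 0.925), or -0.47 without ID_1540. Acta2 averaged 109 ± 47.5 TPM in Scl-cGVHD IgG mice and 203 ± 11.6 TPM in syngeneic IgG mice. The 1 mg mean of 119 TPM thus lay nearer to the Scl-cGVHD level and the 0.5 mg mean of 173 TPM nearer to the syngeneic level. Tagln, another smooth muscle gene, averaged 94.1 ± 18.7 TPM in 1 mg mice and 132 ± 16.2 TPM in 0.5 mg mice, with no overlap. The 20 genes of the TGF-beta and myofibroblast list had a median of -0.16 with 13 negative. Without ID_1540 that list had a median of 0.15 with 65% positive, a change of sign as in the collagens. Tgfb1, the fibrosis cytokine, averaged 41.1 ± 6.43 TPM in 1 mg mice and 31.01 ± 5.07 TPM in 0.5 mg mice (adjusted p = 0.949). Spp1 (osteopontin) lay between 13.4 and 155 TPM at 1 mg and between 7.72 and 41.0 TPM at 0.5 mg, and Il6 between 0.44 and 9.28 TPM at 1 mg and between 0.05 and 1.61 TPM at 0.5 mg.

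Genes of other skin structures were lower at 1 mg in direction. Of 16 sebaceous gland genes 15 were negative with a median of -1.09, and all 15 tested adipocyte genes were negative with a median of -0.77. Without ID_1540 these medians were -0.39 and -0.17. Awat2, a wax synthase of sebum, was at 7.13, 8.69, 0.33, 0.15 and 0.26 TPM in 1 mg mice and at 0.30, 23.4 and 34.2 TPM in 0.5 mg mice. The 0.5 mg mouse ID_1539 thus lay with the low 1 mg mice.

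Oxidative phosphorylation genes were negative in 18 of 20 with a median of -0.28 (-0.16 without ID_1540), and mt-Co2, Ndufb8 and Atp5b did not overlap (1.38% of all genes in this direction). Atp5b, a chain of ATP synthase, lay between 1111 and 1278 TPM at 1 mg and between 1363 and 1647 TPM at 0.5 mg. Skeletal muscle genes had a median of -0.53 (-0.33 without ID_1540), and Pvalb and Tnni2 of fast muscle fibres did not overlap. Pvalb was at 476, 218, 236, 256 and 101 TPM in 1 mg mice and at 510, 913 and 750 TPM in 0.5 mg mice, and the part that the amount of muscle has in the other lists was not tested. The housekeeping list had a median of 0.03.

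Across genes, the dose differences were compared with the change in Scl-cGVHD IgG over syngeneic IgG skin, whose means use none of the 8 mice. The calls share the fit's estimate of spread with them. In that comparison limma called 1118 genes higher (6.84%) and 2925 lower (17.9%). Of the 1118, 90.0% were higher at 1 mg than at 0.5 mg with a median of 0.44, and of the 2925, 81.7% were lower with a median of -0.21. The doses did not overlap with 1 mg higher in 73 of the 1118 (6.53%) and 3 of the 2925, where 1.89% of all genes did so. They did not overlap with 1 mg lower in 1 of the 1118 and 84 of the 2925 (2.87%), where 1.38% of all genes did so. The differences of both comparisons had a Pearson correlation of 0.61 across the 16350 genes, which are not independent of each other.

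These shares leaned on ID_1540. Without it 70.8% of the 1118 genes were higher at 1 mg with a median of 0.21, and 57.7% of the 2925 genes were higher with a median of 0.05. Over all tested genes that share was 67.9% and that median 0.15, so without ID_1540 the genes called in Scl-cGVHD lay close to the centre of all genes.

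**Figure D5:**
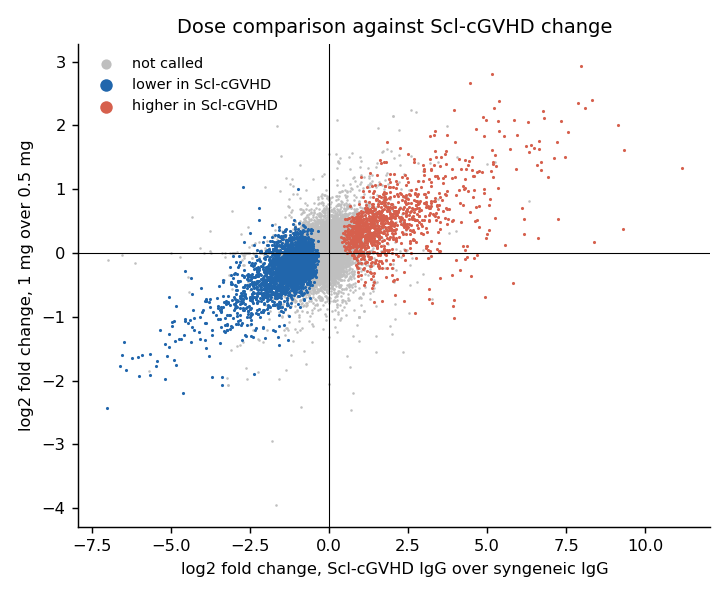
Log2 fold change of each tested gene at 1 mg over 0.5 mg (y axis) against that in Scl-cGVHD IgG over syngeneic IgG skin (x axis); red points were called higher and blue points lower in Scl-cGVHD, and grey points were not called. Red points lie mostly above 0 (90.0%) and blue points mostly below 0 (81.7%).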

How the data were processed

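Skin RNA of 19 mice was sequenced by the authors from stranded mRNA libraries. The submitters' processing notes list the tools FastQC, Trimmomatic, STAR 2.5.2b and RSEM 1.2.31 and the build GRCm38. The deposited values are TPM. TPM keeps no depth, and an abundant transcript in a mouse lowers all its other values. Read counts (uniquely mapped read pairs) came from a deposited summary that names groups and not mice, so the depth of each mouse is unknown and errors are the spread between mice. Each replicate is a separate mouse.

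The log2(TPM + 1) values of genes reaching 1 TPM in 3 or more mice entered 1 fit of all 5 groups in limma 3.58.1 (R 4.3.3), with a mean-variance trend, a robust prior and two-sided p adjusted by Benjamini-Hochberg (threshold 0.05). Single values were tested by exact permutation, with adjustment over the 6 composition measures. Lists were described by counts and medians. Promoters are from RefSeq (GRCm38.p6).

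Members and lists were chosen with earlier results of these data known. Named genes are the 12 per direction with the smallest p, no overlap between doses and at least 5 TPM in the higher group, genes that the study discusses, and up to 3 low-p members per list. The 12 pass over numbered models, antigen receptor segments and keratin-associated proteins. Any other gene (such as Fcer1a, Krt1, Tagln, Il1rl1 and Kit) was chosen after its values were seen. Some named genes are not reported here. The fit was tested on simulated data. Results were recomputed with quantile normalization, median-ratio factors, pseudocount 0.1, no filter, a filter of 5 TPM, the 8 mice or the 11 Scl-cGVHD mice alone, no trend or robust prior, an adjusted p under 0.1, and each mouse left out.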

Additional observations from a re-analysis of the deposited data

Results flagged for a closer look

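In the group given 1 mg (n = 5), 13 of 161 values examined had a mouse at the edge whose gap to the nearest other mouse exceeded 0.71 of the group's range (Dixon's test at 95%). Chance gives about 1 in 20 for normally distributed values. The flagged values are TPM, or a share of TPM, without a log scale and from the same 5 mice, so the 13 cannot be read against that rate. The 3 mice at 0.5 mg are too few for this test. ID_1544 was the highest of its group in Il6 (9.28 TPM, the others 0.44 to 1.12), in the serine protease gene Gzmk (10.6 TPM, the others 3.35 to 4.97), in Mzb1 of plasma cells (11.8 TPM, the others 2.39 to 3.87), in the cytokine gene Il24 (44.7 TPM, the others 1.97 to 13.1), in the collagenase gene Mmp13 (129 TPM, the others 20.6 to 45.5) and in Rrm2 of nucleotide synthesis (52.6 TPM, the others 26.0 to 30.7). Its position between syngeneic and Scl-cGVHD skin was 0.97.

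ID_1542 was the highest in the interferon-induced genes Cxcl9 (442 TPM, the others 106 to 175) and Tapbp of antigen loading (408 TPM, the others 204 to 261), and in Sqle of cholesterol synthesis (89.3 TPM, the others 72.4 to 77.1). ID_1543 was the highest in Cd207 of Langerhans cells (25.5 TPM, the others 0.03 to 4.23), in the root sheath keratin Krt28 (0.29 TPM, the others 0.00 to 0.03) and in the share of hair keratins (0.000595% of all TPM, the others 0.000205% to 0.000298%). It was the lowest in Il1f5, the IL-36 receptor antagonist (109 TPM, the others 255 to 290).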

How the results depend on the processing

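Over 16 other settings of the fit, 2472 of 2486 differences of the 156 named genes kept their direction. Direction changed for Cx3cl1 with pseudocount 0.1 (0.00194). With 1 mouse left out, it changed for Cx3cl1 (range -0.32 to 0.20), Cx3cr1 (-0.10 to 0.29), Col1a1 (-2.69 to 0.35; -2.685 without ID_1539), Col1a2 (-2.51 to 0.17), Mzb1 (-0.14 to 0.82), Il24 (-0.43 to 1.74), Tyr (up to 0.033), Mbp (-0.55 to 0.0068) and Msx2 (-0.0055 to 0.33), where the positive ends of the collagens, Tyr and Mbp and the negative ends of Mzb1 and Il24 came without ID_1540. Calls in limma at an adjusted p under 0.05 stayed at 0 except without a filter (4 lower, all under 1 TPM, namely Gm14049, Gm6342, Tmem262 and Vpreb2) and with a mouse left out, where genes higher ranged from 0 to 4 and genes lower from 0 to 1. The 4 higher without ID_1539 were Ces2f, Chil4, Gm5478 and Tmprss11g, while Npl was higher without ID_1546 and Gm12732 lower without ID_1544. Unadjusted p under 0.05 was reached by 582 to 1946 genes. An alternative chosen after seeing the data took the position between syngeneic and Scl-cGVHD skin as a covariate, where 0 genes passed (smallest adjusted p = 0.182) and 2387 higher and 531 lower genes had an unadjusted p under 0.05. The difference in position ranged from 0.00041 (without ID_1540) to 0.383 (without ID_1539) with a mouse left out. The medians of genes called higher and lower in Scl-cGVHD ranged from 0.21 to 0.53 and from -0.45 to 0.05. Genes called in Scl-cGVHD numbered 919 to 1814 higher and 1692 to 2952 lower with all mice, the 1814 and 1692 with median-ratio factors, and 655 to 1240 higher and 1377 to 3696 lower with 1 mouse left out, the 655 and 1377 without ID_1527. The causes were not tested. With 3 mice at 0.5 mg, a difference the size of the spread between mice is not detectable. No paired analysis was possible because the labels give the groups no shared replicate numbers.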

Other observations

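Genes of the cell cycle had small positive differences at 1 mg, 17 of 20 with a median of 0.24. Without ID_1540 the median was 0.21, where that of all tested genes was 0.15. At an unadjusted p under 0.05 from limma, 0 of the 20 were higher (2.94% of all genes). Mki67, Aurkb and Kif11 did not overlap between the doses (1.89% of all genes in this direction). Mki67, the proliferation antigen, was at 10.8, 12.5, 11.3, 12.1 and 10.2 TPM in 1 mg mice and at 9.36, 9.95 and 8.31 TPM in 0.5 mg mice. Within the 20 collagens, 6 genes went against the median of their list with all mice (-0.49). Col12a1 was among them, with 26.5 ± 8.58 TPM in 1 mg mice and 16.2 ± 1.50 TPM in 0.5 mg mice (SD, n = 5 and n = 3) and no overlap. Without ID_1540 the collagen median was 0.26 with 90% positive, so the direction of Col12a1 was then that of its list. Of the genes whose doses did not overlap, 233 of 309 with 1 mg higher and 141 of 226 with 1 mg lower were called in neither direction in Scl-cGVHD skin, Tpsb2 and Gba2 among the 233. Of all 16350 tested genes, 12307 were called in neither direction. The 233 of 309 lay close to that share, and the 141 of 226 below it.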
